A study of Mus musculus with 7 samples.

Results

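The interleukin 6 family was followed through 9 of its genes: the cytokines Il6, Lif, Il11 and Clcf1, the receptor chains Il6st, Osmr and Lifr, and the signalling genes Stat3 and Socs3. They were picked by symbol from a table of 24419 gene symbols, and all 9 were among the 10535 genes with enough counts to be tested. Il11 passed that filter through the pCAF libraries alone. The other members also reached the count minimum in at least 3 NMF libraries. The table came from 7 libraries of 3' mRNA ends of sorted, non-immune stromal cells of BALB/c mice.

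In the pCAF group were 3 libraries of cancer-associated fibroblasts from breast tumors, raised in females by orthotopic injection of 100000 4T1-luc cells, a mouse mammary carcinoma line that carries luciferase. Their cells were Ter119-, CD45-, EpCAM- and PDPN+ (podoplanin, a surface protein of fibroblasts and lymphatic endothelium), and 8 weeks, the age at injection, was given as the mouse age. The NMF group came from normal mammary fat pads of mice without treatment, 12 weeks old by the labels, and had 4 libraries. These labelled ages differ although the series' own description says the mice were matched in age. NMF cells were Ter119-, CD45- and EpCAM- and were not selected on PDPN, so that group can hold stromal cells other than fibroblasts. Tumor and fat pad were also digested with different collagenases. For pCAF replicate 3 the selection marker was entered as PDPN-, against its source name, and values without it are given where they change the call of a member or named pathway gene or move its fold by over 1.5 times. The labels call the replicates biological but do not tie them to animals, so p-values here measure the spread between libraries.

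Cytokines of this family share a signalling chain, the receptor subunit gp130, encoded by Il6st. Each cytokine adds its own partner: interleukin 6 and interleukin 11 bind alpha chains (Il6ra, Il11ra1), LIF uses the LIF receptor (Lifr), and oncostatin M uses the oncostatin M receptor (Osmr) or Lifr. Receptor assembly activates JAK kinases, which phosphorylate STAT3. Phosphorylated STAT3 induces Socs3, whose product binds gp130 and shuts the signal down. Fibroblasts are well known producers of interleukin 6 and LIF in tumors. The transcript counts used here do not report phosphorylation.

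The total counts of the libraries ran from 1885039 to 4990070, so that 1 count was worth 0.187 to 0.563 CPM (counts scaled to the same effective library size in each library). Levels are given in CPM. Within each group 1 library, pCAF replicate 1 and NMF replicate 4, lay far from the rest in a chi-square comparison of counts, with 40.0 to 42.2 per degree of freedom for pCAF replicate 1 against 3.22 for the other pCAF pair, and 35.6 to 39.8 for NMF replicate 4 against 6.47 to 10.1 for the other NMF pairs. Only 11090 genes had a count in pCAF replicate 1, while the other 6 libraries had 13222 to 14353. Fibroblast markers were present in every library, with a summed level of 73300 to 83010 CPM in pCAF and 26410 to 46210 CPM in NMF for 10 genes. Most of that sum came from Col1a1, Col1a2 and Col3a1. Pdpn, the gene of the protein on which only pCAF was selected, was higher in pCAF in the test used below. Its level was 987, 281 and 384 CPM in pCAF replicates 1 to 3, the last being the library entered as PDPN-. In NMF it was at 44.1 to 58.4 CPM. Of the other markers, Col1a1, Col1a2, Col3a1 and Lum were higher in pCAF, Dpt was lower and 4 did not pass. Among those 4, Dcn was at 3867 to 6057 CPM in pCAF and 6397 to 12050 CPM in NMF, and Pdgfra was 1.03-fold in pCAF over NMF. The blood cell gene Ptprc (CD45) was at 0 in every pCAF library and at 0.934 to 8.88 CPM in NMF.

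All 4 cytokine genes were higher in the pCAF libraries, Osmr was higher, Il6st and Lifr were lower, and Stat3 and Socs3 did not pass the test. Thus 5 of the 9 members rose and 2 fell at an adjusted p under 0.05 (edgeR's quasi-likelihood test, two-sided, adjusted over all tested genes). Among all tested genes 28.4% passed, with 14.3% higher and 14.2% lower; the share of called genes that rose was 50.2%, and 37.1% with library totals as the scaling, which changed no member's call. The median log2 fold change of the members was 1.14, and that of all tested genes was -0.02. The groups did not overlap in any of the 7 members called, and they did not overlap in 40.4% of all tested genes. Without pCAF replicate 1 and NMF replicate 4 together, 5 rose and 3 fell, Socs3 being the third. Far more of all tested genes passed in that setting too: 2802 rose and 2913 fell of 10838, against 1503 and 1491 of 10535 in the reported fit. Without pCAF replicate 3, without NMF replicate 1 or without NMF replicate 2, 4 rose and 1 fell, as Il6 and Lifr were lost. Without pCAF replicate 2 or NMF replicate 4, 5 rose and 1 fell, as Lifr was lost.

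**Figure D1:**
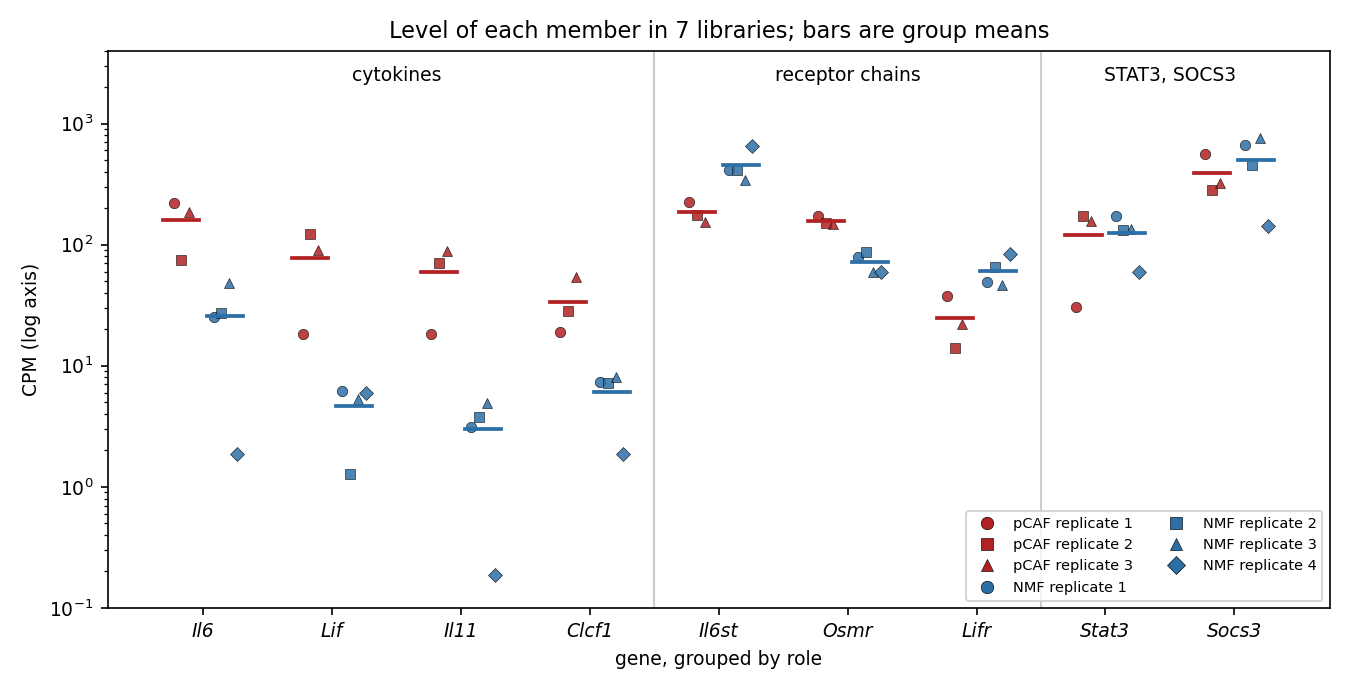
Level of each of the 9 members in CPM on a log axis, with 1 symbol per library (red pCAF, blue NMF) and a bar at each group mean. Every pCAF library lies above every NMF library for the 4 cytokines and Osmr and below for Il6st and Lifr, while the groups overlap for Stat3 and Socs3.

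Il6 (mm10 chromosome 5, 30013114 to 30019981, plus strand) encodes interleukin 6, the inflammatory cytokine that names the family. Its level was 219, 74.9 and 186 CPM in pCAF replicates 1 to 3 and 25.5, 27.0, 48.2 and 1.87 CPM in NMF replicates 1 to 4. All tumor libraries were above the fat pad libraries, and NMF replicate 4, with 10 counts, was far below the rest of its group. The mean was 160 ± 75.6 CPM in pCAF (SD, n = 3) and 25.7 ± 19.0 CPM in NMF (SD, n = 4), a 6.31-fold difference by edgeR (log2 fold change 2.66, SE 0.74, adjusted p = 0.0234). The call was lost by leaving out pCAF replicate 3 (adjusted p = 0.0523), NMF replicate 1 (0.0703) or NMF replicate 2 (0.0675), with folds of 5.80, 6.36 and 6.39. Without both libraries that stood apart the fold was 3.83 (adjusted p = 0.00668), and limma-voom gave 11.5-fold (adjusted p = 0.0163).

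Lif (chromosome 11, 4257557 to 4272514, plus strand) encodes leukemia inhibitory factor, a cytokine first known for its action on leukemic and embryonic stem cells. It was at 18.3, 122 and 90.9 CPM in pCAF and at 6.18, 1.27, 5.28 and 5.98 CPM in NMF. The lowest tumor library, replicate 1, still held more than any fat pad library. The group means were 77.2 ± 53.3 CPM (SD, n = 3) and 4.68 ± 2.31 CPM (SD, n = 4), 16.0-fold apart (log2 fold change 4.00, SE 0.64, adjusted p = 0.00140 by edgeR). Without both libraries that stood apart the fold was 24.1 (adjusted p = 1.72e-08).

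Il11 (chromosome 7, 4772373 to 4782859, minus strand) encodes interleukin 11, a cytokine of bone marrow stroma and of fibroblasts under TGF-beta. Its level was 18.3, 71.0 and 89.2 CPM in pCAF against 3.09, 3.80, 4.93 and 0.187 CPM in NMF. As for Lif, pCAF replicate 1 was the lowest tumor library, and NMF replicate 4 held a single count. The means of 59.5 ± 36.8 CPM (SD, n = 3) and 3.00 ± 2.02 CPM (SD, n = 4) differed 20.9-fold (log2 fold change 4.39, SE 0.77, adjusted p = 0.00233 by edgeR).

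Clcf1 (chromosome 19, 4214238 to 4223490, plus strand) encodes cardiotrophin-like cytokine factor 1, a ligand of the ciliary neurotrophic factor receptor. Clcf1 was at 18.9, 28.2 and 53.8 CPM in pCAF and at 7.34, 7.18, 8.10 and 1.87 CPM in NMF, again without overlap and with NMF replicate 4 lowest. The means were 33.6 ± 18.1 CPM (SD, n = 3) and 6.12 ± 2.86 CPM (SD, n = 4), a 5.60-fold difference (log2 fold change 2.49, SE 0.55, adjusted p = 0.00784 by edgeR). In GENCODE M21 an exon of another gene, AC109138.7, lies on the same strand near the 3' end of Clcf1, and their ends are near-identical. AC109138.7 is not among the gene symbols counted, and the annotation used for counting is not given. The share of reads counted for Clcf1 is thus uncertain.

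The summed levels of blood and epithelial cell markers overlapped between the groups, for the lymphocyte and myeloid lists through NMF replicate 4 alone. Lymphocyte markers summed to 1.66 to 8.87 CPM in pCAF, 27.9 to 31.7 CPM in NMF replicates 1 to 3 and 2.80 CPM in NMF replicate 4. Of 12 myeloid markers 9 had a count in pCAF, with Ptprc, Adgre1 and Csf3r at 0, and their summed level was 49.3 to 96.3 CPM there. In NMF the myeloid sum was 204 to 301 CPM in replicates 1 to 3 and 37.5 CPM in replicate 4. Ptprc, Cd68, C1qa and C1qb fell, while Csf1r was at 10.7 to 27.2 CPM in pCAF and 3.36 to 14.1 CPM in NMF (adjusted p = 0.154) and S100a9 reached 6.20 CPM in pCAF and 2.53 CPM in NMF. Epithelial markers summed to 74.9 to 235 CPM in pCAF and 62.9 to 344 CPM in NMF, and Epcam was at 0 to 3.33 CPM in pCAF and 7.66 to 24.7 CPM in NMF, while Krt14 reached 11.6 and 11.0 CPM (adjusted p = 0.880). A list of 15 immediate early and dissociation response genes, which respond to tissue handling and also to signals in living tissue, summed to 13920 to 18440 CPM in pCAF. In NMF that sum was 17390 to 20410 CPM in replicates 1 to 3 and 5898 CPM in replicate 4, the library with the lowest Il6, Il11 and Clcf1 and the lowest myeloid and epithelial sums. Of the 15 genes 2 rose, the heat shock genes Hspa1a and Hspa1b, and none fell. Without NMF replicate 4 the 4 cytokines all passed, with adjusted p of 0.00814 for Il6, 0.00611 for Lif, 0.00284 for Il11 and 0.00887 for Clcf1 by edgeR. The part of the early response genes and of these cells in the levels of the cytokines was not tested.

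The promoters of the members that rose are shown because 4 of them carry the same short motif, and that of Socs3 because it alone among the members holds a STAT motif. RefSeq windows (build GRCm38.p6, 250 bases before to 50 after a transcription start) were at hand for 8 members, Il11 and Lifr having 2 each; Clcf1 had none. Both strands were searched for the AP-1 motif TGANTCA, bound by FOS and JUN family proteins, the STAT motif TTCNNNGAA and the NF-kappaB motif (GGGA, any 4 bases, then CC), chosen with the members' values known. In the sequences, written 5′ to 3′ on the strand of the gene, capitals mark the AP-1 motif, and in Socs3 the STAT motif.
Il6, chr5:30012864-30013163, plus strand: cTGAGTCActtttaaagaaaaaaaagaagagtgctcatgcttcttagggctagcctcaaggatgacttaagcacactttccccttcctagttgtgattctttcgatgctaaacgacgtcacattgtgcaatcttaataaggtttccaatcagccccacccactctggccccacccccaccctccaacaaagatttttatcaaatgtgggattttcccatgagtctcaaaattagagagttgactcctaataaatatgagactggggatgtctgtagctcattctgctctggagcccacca
Lif, chr11:4257318-4257617, plus strand: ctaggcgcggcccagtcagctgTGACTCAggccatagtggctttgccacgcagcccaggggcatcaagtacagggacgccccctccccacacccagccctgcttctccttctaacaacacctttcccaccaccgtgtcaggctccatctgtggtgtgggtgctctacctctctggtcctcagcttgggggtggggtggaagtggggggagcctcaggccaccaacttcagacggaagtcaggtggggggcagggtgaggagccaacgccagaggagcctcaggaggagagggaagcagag
Il11, chr7:4778092-4778391, minus strand: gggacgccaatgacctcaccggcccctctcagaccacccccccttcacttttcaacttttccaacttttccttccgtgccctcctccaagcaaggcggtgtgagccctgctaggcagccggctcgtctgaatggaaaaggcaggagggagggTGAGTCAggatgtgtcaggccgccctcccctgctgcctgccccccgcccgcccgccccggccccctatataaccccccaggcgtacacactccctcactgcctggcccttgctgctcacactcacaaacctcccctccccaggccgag
Osmr, chr15:6874264-6874563, minus strand: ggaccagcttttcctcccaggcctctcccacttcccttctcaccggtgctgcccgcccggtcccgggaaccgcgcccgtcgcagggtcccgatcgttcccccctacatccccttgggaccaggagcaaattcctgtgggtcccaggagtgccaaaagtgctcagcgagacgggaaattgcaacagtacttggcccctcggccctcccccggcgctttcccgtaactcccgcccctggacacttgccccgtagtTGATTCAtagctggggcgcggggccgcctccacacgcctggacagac
Socs3, chr11:117969317-117969616, minus strand: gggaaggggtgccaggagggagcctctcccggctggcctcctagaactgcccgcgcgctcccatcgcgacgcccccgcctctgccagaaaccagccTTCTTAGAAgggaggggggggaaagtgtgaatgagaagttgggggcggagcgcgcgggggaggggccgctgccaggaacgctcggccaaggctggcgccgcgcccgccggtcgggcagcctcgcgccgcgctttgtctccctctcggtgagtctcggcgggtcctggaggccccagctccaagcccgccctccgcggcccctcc

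The AP-1 motif was in the windows of Il6, Lif, Il11 and Osmr, which all rose, and in none of those of Il6st, Lifr, Stat3 and Socs3. It began 249 bases before the start in Il6, 228 in Lif and 98 in Il11, and at transcribed base 4 in Osmr. The second Il11 window, at a start further upstream, did not hold it. Of all 27025 genes with a window, 8.97% held the AP-1 motif. The STAT motif was in 1 of the 8 members, Socs3, 154 bases before the start, and in 9.55% of all genes. The NF-kappaB motif was in 5 of the 8 members (Il6, Lif, Osmr, Lifr and Socs3) and in 22.92% of all genes. These matches are descriptions of letters in the windows, not of binding.

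Il6st encodes gp130, the chain that all these cytokines use. Its level was 226, 177 and 155 CPM in pCAF replicates 1 to 3 and 414, 416, 345 and 649 CPM in NMF replicates 1 to 4. Each tumor library was below each fat pad library, and NMF replicate 4 was the highest of all. The mean fell from 456 ± 133 CPM in NMF (SD, n = 4) to 186 ± 36.1 CPM in pCAF (SD, n = 3), a 2.45-fold difference (log2 fold change -1.30, SE 0.30, adjusted p = 0.00945 by edgeR). The call held without each library in turn, with adjusted p from 0.00394 to 0.0461. In sorted bulk cells, fewer cells of a type and less RNA per cell cannot be told apart. The same holds for the genes that rose, Osmr and the cytokines among them, as only pCAF was selected on PDPN.

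Lifr, the LIF receptor chain, followed the same pattern with less support. It was at 37.7, 14.1 and 22.2 CPM in pCAF and at 49.1, 65.0, 46.5 and 83.7 CPM in NMF, so that the highest tumor library, replicate 1, lay just under the lowest fat pad library. The means were 24.7 ± 12.0 CPM (SD, n = 3) and 61.1 ± 17.2 CPM (SD, n = 4), 2.48-fold apart (log2 fold change -1.31, SE 0.39, adjusted p = 0.0296 by edgeR). Lifr missed the threshold on leaving out pCAF replicate 2 (adjusted p = 0.0996) or 3 (0.0902), or NMF replicate 1 (0.0570), 2 (0.0721) or 4 (0.0747). Of the 36 pairs of members, Il6st and Lifr had the most similar profiles: their log2 CPM, each centred on its own mean, differed by a root mean square of 0.31 over the 7 libraries.

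Osmr, which pairs with gp130 for oncostatin M and with IL31RA for interleukin 31, went the other way. Its level was 173, 152 and 148 CPM in pCAF and 79.6, 87.8, 59.8 and 59.8 CPM in NMF. Both groups were tight and did not overlap. The means of 158 ± 13.6 CPM (SD, n = 3) and 71.8 ± 14.2 CPM (SD, n = 4) differed 2.20-fold (log2 fold change 1.14, SE 0.25, adjusted p = 0.00682 by edgeR). Osmr and Lifr lie on mm10 chromosome 15, at 6813577 to 6874969 (minus strand) and 7090614 to 7197489 (plus strand), head to head, 216 kb apart and no protein-coding gene between them. Thus 2 neighbouring receptor genes changed in opposite directions.

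**Figure D2:**
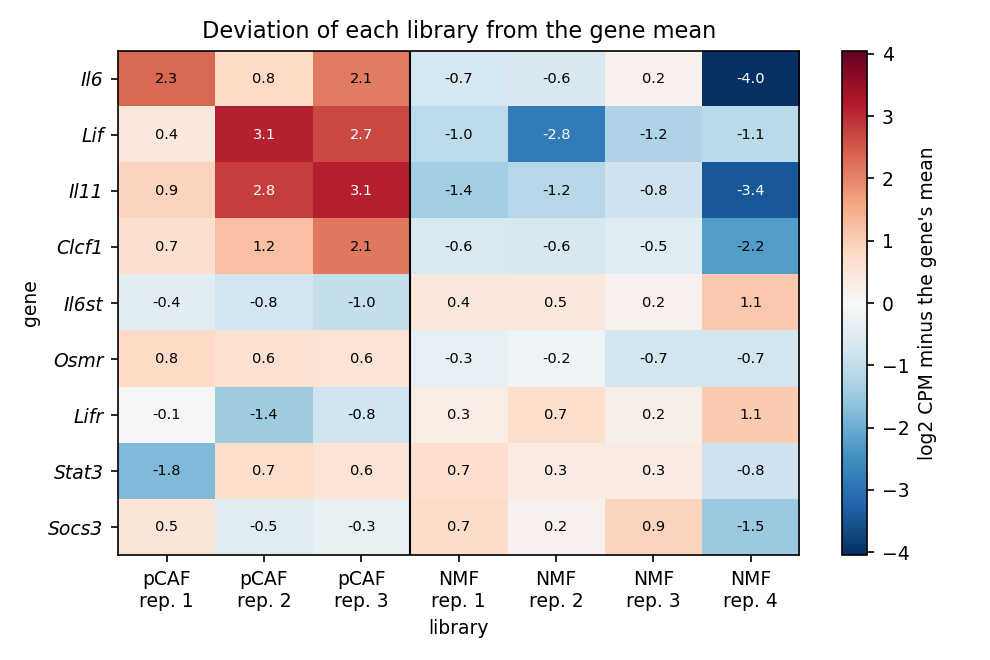
Heat map of log2 CPM minus the mean of the gene over the 7 libraries, for 9 members (rows) and 7 libraries (columns), with red above and blue below the mean of the gene. The cytokine rows are red in pCAF and mostly blue in NMF, Il6st and Lifr are the reverse, and NMF replicate 4 holds the darkest blue cells in Il6 and Il11.

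The falls of Il6st and Lifr came with far lower markers of blood endothelial cells, adipocytes and Schwann cells in pCAF. Of 12 blood endothelial markers 11 had a count in pCAF, with Sox17 at 0, and their summed level was 53.8 to 69.3 CPM against 1917 to 3117 CPM in NMF. Of 7 adipocyte markers 4 had a count in pCAF, with Plin1, Lep and Cidec at 0, and the sum was 1.66 to 61.5 CPM against 1736 to 15450 CPM. Plin1 and Lep were near 0 in NMF too, with 11 and 9 counts, and were not tested. The 5 tested genes all fell. Most of the sum in each NMF library was Fabp4, at 1577 to 15230 CPM, while Adipoq was at 16.0 to 38.2 CPM and Cidec at 24.5 to 46.4 CPM there. Schwann cell markers, 5 in all with Sox10 and Cdh19 at 0 in pCAF, summed to 0 to 3.38 CPM against 139 to 665 CPM. Lymphatic endothelial markers, 6 in all with Ccl21a at 0 in every library, overlapped at 23.3 to 46.8 CPM in pCAF and 32.4 to 78.8 CPM in NMF; Mmrn1 rose 12.1-fold (adjusted p = 0.00842), Flt4 fell (0.0137) and Lyve1 did not pass (0.335). Pericyte and smooth muscle markers overlapped in their sum, at 259 to 435 CPM in pCAF and 361 to 564 CPM in NMF, but single genes of the list went both ways. Rgs5 was at 0 to 1.11 CPM in pCAF and 69.0 to 186 CPM in NMF (adjusted p = 7.93e-05 by edgeR). Notch3 fell as well (2.65e-04), Des rose 3.30-fold (0.00933) and 4 did not pass. Within NMF, replicate 4 had the highest Il6st and Lifr and the highest fibroblast and Schwann sums (46210 and 665 CPM), but the lowest adipocyte sum (1736 CPM) and a blood endothelial sum of 1953 CPM near the lowest. Most of that adipocyte sum was Fabp4 (1577 CPM in replicate 4). Of the other tested adipocyte markers, Pparg was lowest in replicate 4 (68.9 CPM), Retn was highest there (33.8 CPM), and Adipoq and Cidec lay between the other NMF libraries. The part of these cell types in the lower Il6st and Lifr was not tested.

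**Figure D3:**
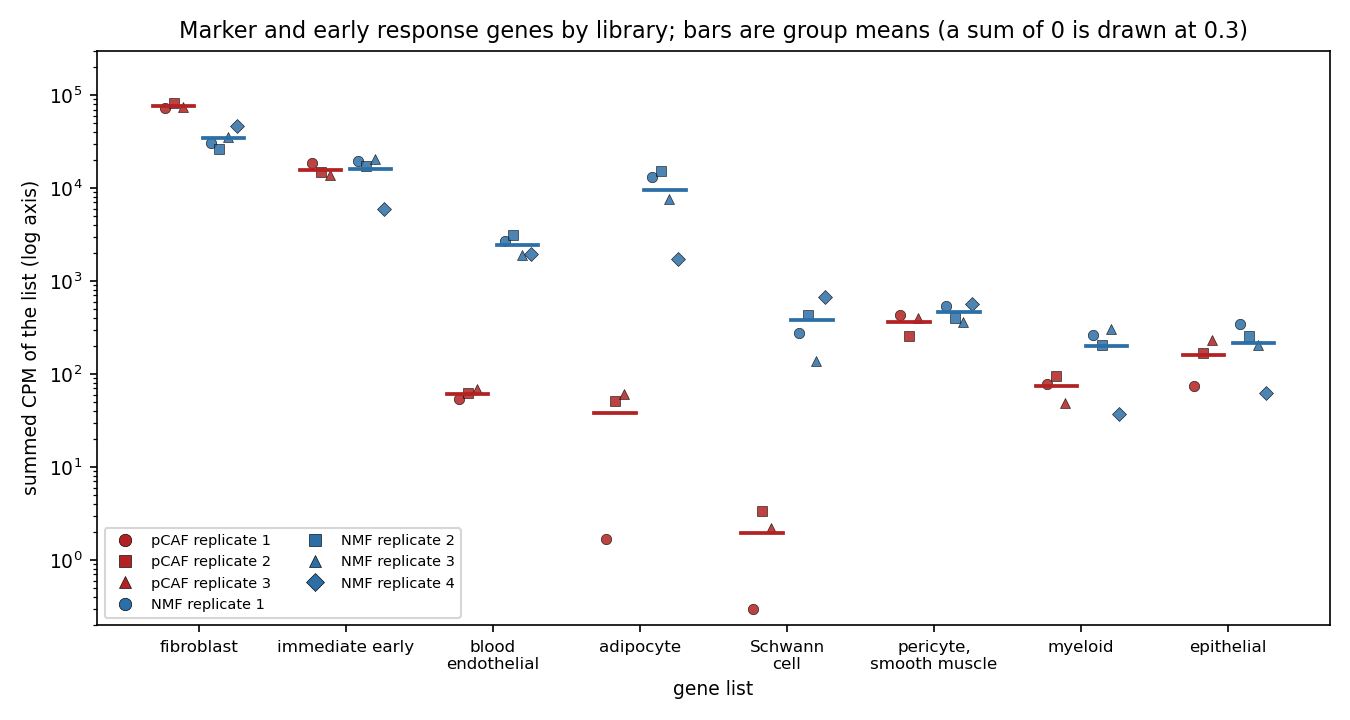
Summed CPM on a log axis of 8 gene lists in each library (red pCAF, blue NMF, 1 symbol per library), with a bar at each group mean. Blood endothelial, adipocyte and Schwann cell lists are far lower in pCAF, while the early response list is lowest in NMF replicate 4, at 5898 CPM.

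Stat3, the transcription factor downstream of gp130, showed no shift that the test could call. It was at 30.5, 174 and 158 CPM in pCAF and at 172, 133, 135 and 59.6 CPM in NMF. The groups overlapped, and in each of them 1 library was far below the rest: pCAF replicate 1 and NMF replicate 4. The means were 121 ± 78.7 CPM (SD, n = 3) and 125 ± 47.1 CPM (SD, n = 4), with a log2 fold change of -0.05 (SE 0.53, adjusted p = 0.960 by edgeR). The sign turned without pCAF replicate 1 (0.41, adjusted p = 0.382), without NMF replicate 1 (0.14, 0.904) and without both libraries that stood apart (0.17, 0.441). Stat3 (mm10 chromosome 11, 100885098 to 100939540, minus strand) overlaps Stat5a, on the plus strand, at its 3' end; since the use of strand in counting is not given in the sources used here, reads of the pair cannot be told apart there.

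Socs3 (mm10 chromosome 11, 117966079 to 117970047, minus strand), the feedback inhibitor that STAT3 induces, was at 566, 286 and 325 CPM in pCAF and at 670, 455, 755 and 142 CPM in NMF. The groups overlapped, as NMF replicate 4 was the lowest library of all and pCAF replicate 1 the highest of the tumor libraries. The means of 392 ± 152 CPM (SD, n = 3) and 505 ± 273 CPM (SD, n = 4) gave a log2 fold change of -0.36 (SE 0.50, adjusted p = 0.630 by edgeR). Without those 2 libraries Socs3 was lower in pCAF (log2 fold change -1.05, adjusted p = 5.26e-04), with 286 and 325 CPM against 455 to 755 CPM. Of all 10838 genes tested in that setting, 2913 were lower and 2802 higher. The sum of the 15 early response genes was also lowest in NMF replicate 4 and highest among tumor libraries in pCAF replicate 1 (18440 CPM). Single genes differed: Fos, Jun, Ier2, Dusp1 and Klf6 were lowest among tumor libraries in pCAF replicate 1, and the rest of the list was highest there. The part of these genes in the level of Socs3 was not tested.

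**Figure D4:**
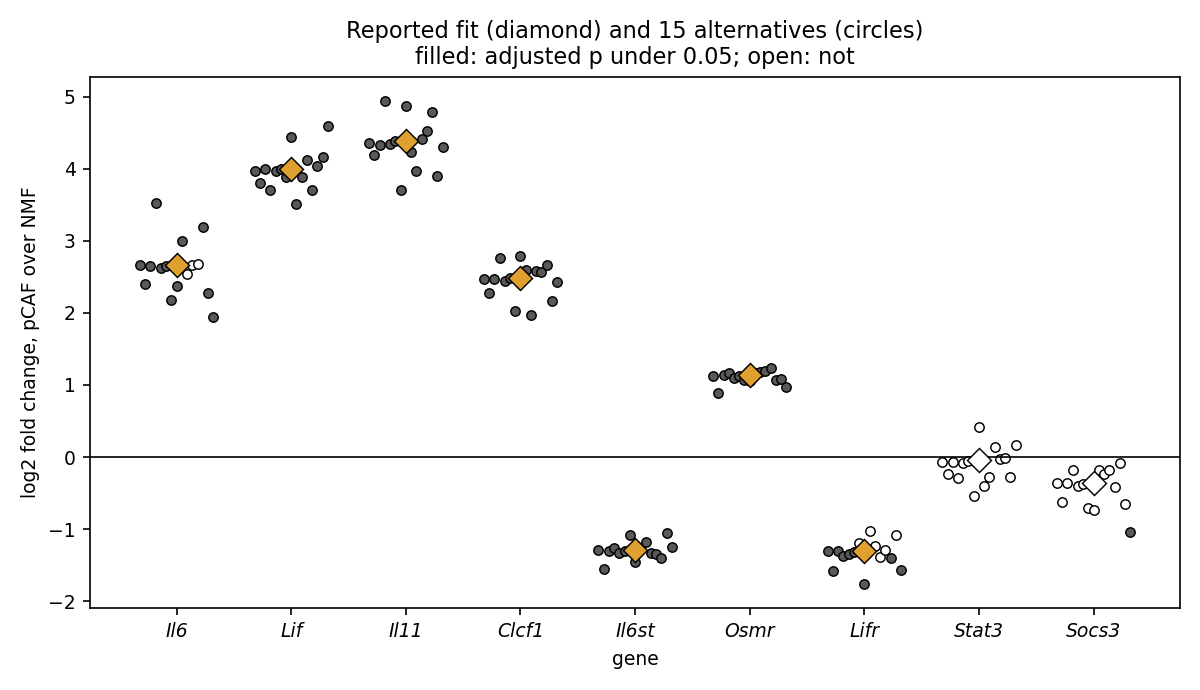
Log2 fold change, pCAF over NMF, of each member in the reported fit (diamond) and in 15 other analyses (circles), filled where the adjusted p was under 0.05. Lif, Il11, Clcf1, Il6st and Osmr are filled throughout, Il6 and Lifr are open in 3 and 6 analyses, and Socs3 is filled in 1.

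Several other ligands of the family had few or no counts. Ctf1 (cardiotrophin 1) was at 5.39 ± 4.44 CPM (SD, n = 3) and 3.16 ± 2.13 CPM (SD, n = 4) and did not pass (1.77-fold, adjusted p = 0.600 by edgeR). Without pCAF replicate 3 the Ctf1 fold was 1.02. Osm, encoding oncostatin M, the ligand of Osmr, had 3 counts over the pCAF libraries and 4 over the NMF libraries. Cntf, Ctf2 and Il27 had no count in any library, Il31 had 2 in NMF, and Ebi3 had 3 in pCAF and 6 in NMF.

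Among the other receptor chains the alpha chain for interleukin 6 was far lower in pCAF. Il6ra, which gives a cell the ability to bind interleukin 6 directly, was at 0, 7.32 and 8.87 CPM in pCAF and at 82.7, 95.4, 93.6 and 135 CPM in NMF. The mean fell from 102 ± 22.8 CPM (SD, n = 4) to 5.40 ± 4.74 CPM (SD, n = 3), 18.7-fold (log2 fold change -4.23, SE 0.68, adjusted p = 0.00145 by edgeR). It was 11.2-fold without both libraries that stood apart and 37.6-fold by limma-voom. As for Il6st, NMF replicate 4 was the highest library, and the same blood endothelial, adipocyte and Schwann cell lists were lower in pCAF. Their part in the fall of Il6ra was not tested.

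Il31ra, the partner of Osmr for interleukin 31, had 2 counts in pCAF, both in replicate 3, and 21, 40, 59 and 134 counts in NMF. After scaling that made 52.0 times as much in NMF (exact 95% interval from counting alone, 14.2 to 432; adjusted p = 0.00170 by edgeR), 34.6 and 34.8 times without pCAF replicate 1 or 2. On leaving out pCAF replicate 3, no count was left in that group, and with 3 counts over the group as the limit the NMF level was at least 23.0-fold higher; the exact two-sided 95% interval began at 18.6. The ends of 5 other genes are near-identical to an annotated end of Il31ra, which makes its share of reads uncertain. Il31ra (mm10 chromosome 13, 112519898 to 112594360, minus strand) and Il6st (112464070 to 112510086, plus strand) are neighbours whose 3' ends face each other, 9.81 kb apart; both were lower in pCAF.

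The other 3 tested chains did not pass. Il11ra1, the alpha chain for interleukin 11, was at 159, 172 and 122 CPM in pCAF and at 174, 173, 191 and 455 CPM in NMF (log2 fold change -0.72, SE 0.38, adjusted p = 0.192 by edgeR). The groups did not overlap but nearly touched, and the difference of the means came mostly from NMF replicate 4; without that library the log2 fold change was -0.23. Its near-identical copies Il11ra2 and Gm13305 make its share of reads uncertain. Cntfr, the alpha chain used by CLCF1, was at 4.08 ± 2.08 CPM (SD, n = 3) and 9.55 ± 5.35 CPM (SD, n = 4; adjusted p = 0.172). Il27ra was at 51.6, 5.63 and 5.54 CPM in pCAF and at 15.8, 18.6, 9.86 and 21.7 CPM in NMF (adjusted p = 0.767), and was lower in pCAF without pCAF replicate 1 (log2 fold change -1.57, adjusted p = 0.0196). Of the 5 tested receptor chains outside the members 2 fell and none rose, where 14.2% of all tested genes fell, with a median log2 fold change of -1.24.

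**Figure D5:**
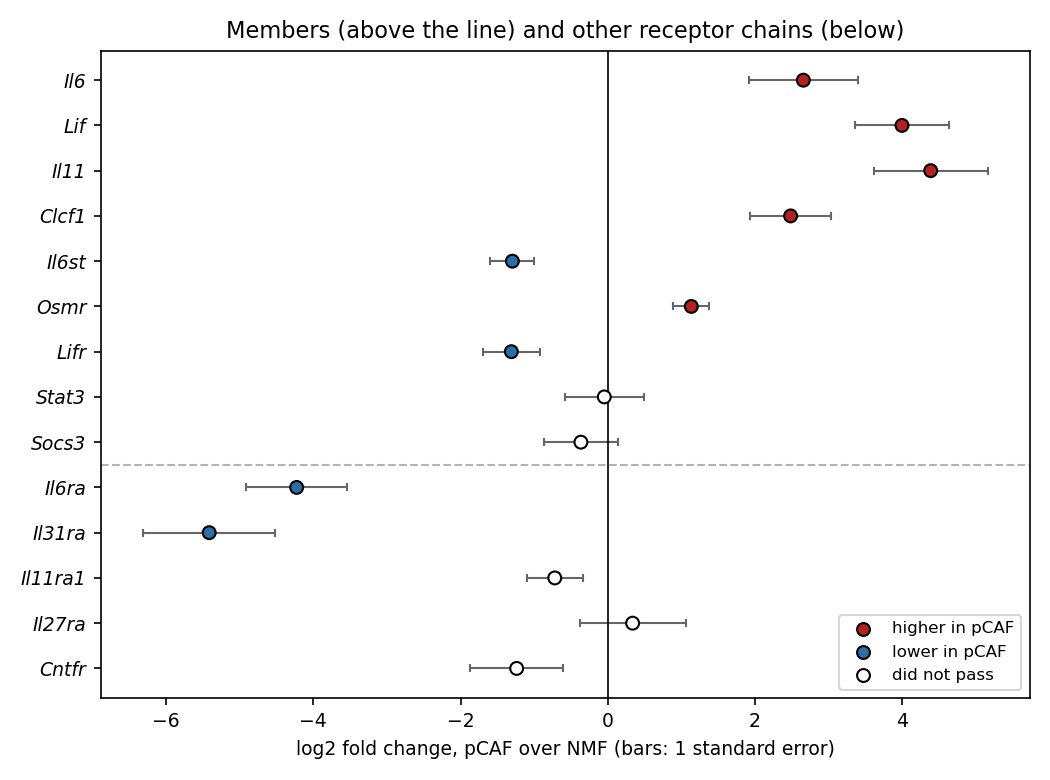
Log2 fold change, pCAF over NMF, with bars of 1 standard error, for the 9 members and for the 5 other receptor chains that could be tested (red rose, blue fell, open did not pass). The 4 cytokine genes lie to the right and all receptor chains but Osmr and Il27ra to the left; the value of Il31ra rests on 2 pCAF counts.

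Of 9 tested JAK and other STAT genes 1 fell and none rose. That is 11.1% called, against 28.4% of all tested genes, a difference that was not tested, and the median log2 fold change was -0.03. The one that fell was Stat5b, which acts downstream of growth hormone and prolactin receptors, from 78.6 ± 21.1 CPM in NMF (SD, n = 4) to 25.1 ± 9.72 CPM in pCAF (SD, n = 3; 3.12-fold, adjusted p = 0.00817 by edgeR). Jak1, the kinase most used by gp130, was at 185 ± 22.5 CPM in pCAF and 159 ± 22.7 CPM in NMF (adjusted p = 0.537). Stat2 stood at 108 ± 13.0 against 109 ± 26.1 CPM (adjusted p = 0.956) and Stat6 at 74.7 ± 52.6 against 79.4 ± 22.2 CPM (adjusted p = 0.898). Stat6 was lower in pCAF without pCAF replicate 1 (log2 fold change -0.85, adjusted p = 0.0466). Without pCAF replicate 1, alone or with NMF replicate 4, 1 gene of this list rose and 3 fell. Among all tested genes 2021 rose and 2187 fell in the first of these settings, and 2802 and 2913 in the second. By DESeq2, limma-voom or without NMF replicate 1, 1 rose.

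Among 14 tested inhibitors of the pathway 2 rose and 1 fell (21.4% called, 28.4% among all tested genes), with a median log2 fold change of 0.05. Leaving out 1 library gave 1 to 3 that rose and 0 to 1 that fell. Leaving out both that stood apart gave 4 and 3, where 2802 and 2913 of all 10838 tested genes rose and fell. Ptpn2, a tyrosine phosphatase that removes phosphate from JAK1 and STAT3, was at 55.5, 60.8 and 61.5 CPM in pCAF and at 14.7, 10.6, 17.6 and 9.71 CPM in NMF. It rose 4.52-fold with no overlap (log2 fold change 2.18, SE 0.31, adjusted p = 6.68e-04 by edgeR). Pias2 rose 2.89-fold (adjusted p = 0.0382) and Pias4 fell 3.99-fold (adjusted p = 0.0451); both encode SUMO ligases of the PIAS family, and neither call held throughout. The Pias2 call was lost without any 1 library other than NMF replicate 4 (adjusted p from 0.0591 to 0.108), and with library totals as the scaling (0.0736). The Pias4 call was lost without pCAF replicate 2 or any NMF library (0.0658 to 0.112), and its fold was 7.59 without pCAF replicate 3, 6.15 by limma-voom and 2.52 without both libraries that stood apart. Socs2 (adjusted p = 0.578), Ptpn1 (0.590) and Socs1 (0.589) did not pass; Socs1 was at 5.60 CPM in NMF replicate 4 and at 58.3 to 86.6 CPM in the other NMF libraries, and was lower in pCAF without both libraries that stood apart (log2 fold change -0.61, adjusted p = 0.0225).

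Of 19 tested genes known as STAT3 targets, 3 rose, 3 fell and 13 did not pass; 31.6% were called, near the 28.4% of all tested genes, with a median log2 fold change of 0.08. The acute phase genes Saa3 (834-fold) and Lbp (5.24-fold) and the protease inhibitor gene Timp1 (55.0-fold) rose, with adjusted p of 3.63e-05, 0.00411 and 1.26e-04 by edgeR. Without NMF replicate 3 the folds of Saa3 and Timp1 were 1510 and 85.8, limma-voom gave 1311 for Saa3, and without pCAF replicate 1 that of Lbp was 2.82 (3.22 without both libraries that stood apart); many other genes carry sequence near-identical to the end of Saa3. Lrg1, a secreted glycoprotein gene also active in endothelium, fell 11.2-fold (adjusted p = 3.12e-04), and the survival gene Bcl2l1 fell 3.80-fold (adjusted p = 0.00121). Cebpd, a transcription factor of the acute phase response, was lower 5.02-fold (adjusted p = 0.0361). That call was lost without pCAF replicate 3 or any NMF library (0.0566 to 0.0901), and the fold was 8.67 without pCAF replicate 2 and 9.90 by limma-voom. The early response genes Fos (2439 ± 351 against 3432 ± 1549 CPM, adjusted p = 0.428) and Junb (825 ± 176 against 1232 ± 609 CPM, adjusted p = 0.388) did not pass, nor did the survival gene Mcl1 (144 ± 32.5 against 302 ± 119 CPM, adjusted p = 0.0648). Without NMF replicate 4 all 3 passed as lower in pCAF (adjusted p = 0.0361, 0.0393 and 0.00525), and 5 genes of the list then fell; Mcl1 also passed by DESeq2 (0.0275), with library totals (0.0362) and without a filter (0.0459). Without pCAF replicate 1, 6 rose, as did 2021 of all 11048 genes tested there. Without both libraries, 6 rose and 10 fell, as did 2802 and 2913 of all 10838 genes tested in that setting.

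Other genes with the profiles most like those of 5 members were sought among all tested genes, by the root mean square difference of centred log2 CPM over the 7 libraries. Il11 was closest to Fosl1 (0.24), which encodes the AP-1 protein FRA1. Next came Cthrc1 (0.38), a secreted protein of activated fibroblasts, and Ube2c (0.38), a ubiquitin-conjugating enzyme of mitosis. Fosl1 was at 17.2, 70.4 and 75.9 CPM in pCAF and at 2.70, 2.11, 5.63 and 0 CPM in NMF, with the same low tumor library, replicate 1, as Il11. Lif was closest to Brinp3 (0.46), Pdzrn3 (0.46) and Slc2a1, the glucose transporter GLUT1 (0.55). Il6 was closest to Nabp1 (0.44), Spc25 (0.54) and Ankrd37 (0.59), all at 0 or close to it in NMF replicate 4. Osmr was closest to Mlkl (0.13), 4921524J17Rik (0.14) and Cebpz (0.15), and Lifr to Naprt (0.11), E130102H24Rik (0.18) and Vamp2 (0.18).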

How the data were processed

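Messenger RNA was measured in 3 pCAF and 4 NMF libraries, grouped by title. The deposited values are raw counts per gene symbol, with no scaling by the authors. Per the labels' protocols the libraries hold 3' ends of mRNA. STAR 2.4.2a, HTSeq, bcl2fastq and the build mm10 are named per the submitters' processing notes, with no roles given; annotation, strand setting, multi-mapping and molecular identifiers are not given in the sources used here. A count thus stands for a read or molecule at the end of a transcript, so levels do not grow with gene length.

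Genes were kept by filterByExpr of edgeR 4.0.16 (R 4.3.3), which needs 10 counts at the median library size in at least 3 libraries, and scaled with TMM factors. CPM were computed from effective library sizes. The 2 groups were compared by edgeR's quasi-likelihood test in its robust form (two-sided), and p-values were adjusted by Benjamini and Hochberg's method over 10535 genes, with a threshold of 0.05. Standard errors are the fitted log2 fold change divided by the root of its F statistic. Centred log2 CPM used a prior count of 2. Floors and intervals cover counting error only. Members, lists, motifs and alternatives were chosen with earlier results of these data known. Of each pathway list the text names up to 5 genes that passed in each direction, by p, and the 3 most abundant that did not; Il31, Ebi3, Osm and other untested ligands were named to account for that list. A gene of these lists is not reported here. For Il6, Lif, Il11, Osmr and Lifr, the 3 nearest profiles were named.

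Alternatives were DESeq2 1.42.0 size factors and its test, library totals, limma-voom (limma 3.58.1), no filter, a mean of at least 10 CPM, a block on the replicate number, leaving out each library, and pCAF replicate 1 with NMF replicate 4 left out. Gene positions are from GENCODE M21. The last 300.0 bases of transcripts were compared with blastn 2.17.0 (at least 80 bases at 95% identity); Socs2, Ube2c and Saa3 share such ends with many genes. The ends of Ctf1, Il11ra1, Il27ra, Jak1, Stat6, Cebpd and Junb overlap a gene on the other strand, so their reads are uncertain too. The same holds for Fosl1, Ube2c, Ankrd37, Cebpz and 4921524J17Rik, named for their profiles. Cebpz and 4921524J17Rik also share a near-identical end with 1 other gene each, and the end of E130102H24Rik overlaps Mir101a on the same strand. On simulated counts for 10226 genes, edgeR called 81.2% of genes planted with 8-fold changes, 51.6% at 4-fold and 4.62% at 2-fold, and 6 of 93 calls were of unchanged genes. Far fewer genes were planted with a change than the 2994 that passed in the data, so these shares do not carry over to it. Figures used matplotlib 3.10.9.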

Additional observations from a re-analysis of the deposited data

Results flagged for a closer look

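In NMF, 3 genes had 1 library whose gap to the rest took up more of the range of the group than Dixon's 95% critical value for 4 samples allows, and that library was replicate 4 each time. Clcf1 was at 1.87 CPM there, against 7.18 to 8.10 CPM in NMF replicates 1 to 3. Ctf1 was at 0 CPM there, against 3.80 to 4.58 CPM. Il11ra1 was at 455 CPM there, against 173 to 191 CPM. In all 35 genes were examined, and chance flags about 1 in 20 groups.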

How the results depend on the processing

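The rises of Lif, Il11, Clcf1 and Osmr and the fall of Il6st kept their direction and an adjusted p under 0.05 in all 15 alternatives, with p from 1.59e-09 to 0.0461. Il6 passed in 12 of the 15 and Lifr in 9, in the same direction throughout. On simulated counts 4.62% of 2-fold changes were recovered, but with 93 calls there against 2994 in the data, the adjusted threshold was harder to pass. That share therefore cannot say how often a 2-fold difference such as that of the receptors would be called with these 3 against 4 libraries. Scaling by library totals moved the log2 fold change of the median gene from -0.02 to -0.26 and the share of called genes that were higher in pCAF from 50.2% to 37.1%, and no member changed its call. With the replicate block, 978 genes rose in place of 1503, 1 member fell (Lifr lost, adjusted p = 0.0989), 1 inhibitor rose, Il11 was 13.1-fold higher, and Pias2 (0.0510), Pias4 (0.116) and Cebpd (0.0770) were lost, while Mcl1 (0.0198) was gained. In the block, NMF replicate 4 has a number that no pCAF library shares and so drops out of the contrast. The deviations of libraries with the same number from their group means correlated at -0.093, 0.079 and -0.013, which gave no sign of pairing by number. They cannot exclude it, because pCAF replicate 1 and NMF replicate 4 lay far from the rest and weigh on the means of their groups. Without pCAF replicate 1 and NMF replicate 4 together, 2802 genes rose and 2913 fell, 3 members fell, 4 inhibitors rose and 3 fell, 1 JAK or STAT gene rose and 3 fell, and 6 STAT3 targets rose and 10 fell. DESeq2 and limma-voom each called 1 JAK or STAT gene higher, and library totals left 1 inhibitor that rose.

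Leaving out 1 library gave 1016 to 2021 genes that rose and 979 to 2187 that fell, 4 to 5 members that rose and 1 to 2 that fell, 0 to 1 JAK or STAT genes that rose and 1 to 3 that fell, 1 to 3 inhibitors that rose and 0 to 1 that fell, 3 to 6 STAT3 targets that rose and 2 to 5 that fell, and 2 to 3 other receptor chains that fell. The log2 fold changes that changed sign belonged to genes that did not pass in the reported test: Jak1 (-0.017) and Ptpn1 (-0.013) with library totals, Stat2 by limma-voom (0.0016) and with the block (0.090), Il27ra by limma-voom (-0.43), with the block (-0.20) and without both libraries (-1.39), and Stat3 without both (0.17). Leaving out 1 library, the range was -0.40 to 0.41 for Stat3, -1.57 to 0.79 for Il27ra, -0.15 to 0.086 for Stat2 and -0.85 to 0.20 for Stat6. The cause of these changes was not tested.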
